A study of Mus musculus with 8 samples.

Results

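Genes of purinergic signalling were examined by RNA sequencing of islet macrophages, which had been sorted from the mouse pancreas by CD11b and F4/80. The 10 genes comprised the ATP-gated channels P2rx4 and P2rx7, the nucleotide receptors P2ry2, P2ry6, P2ry12, P2ry13 and P2ry14, the ectonucleotidases Entpd1 and Nt5e, and the adenosine receptor Adora2a. They were found by their symbol in the deposited table, in which each symbol had 1 row, and make up 10 of 48440 genes. The high-fat diet (HFD) group held 4 libraries, replicates 5 to 8, from mice fed a diet with 45% fat. The chow group held 4 libraries, replicates 1 to 4, from mice fed a diet with 8% fat. All mice were wild-type male C57BL/6J animals, fed their diet for 8 weeks and 16 weeks old, and each library pooled RNA extracts of 2 mice, so a library is the unit of replication and differences between mice within a pool are not seen. The labels do not say on which days or in which batches the libraries were made.

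Extracellular ATP, which beta cells release together with insulin, is sensed by P2X channels and P2Y receptors on nearby cells. P2X receptors are ion channels opened by ATP, and P2Y receptors couple ATP, ADP, UTP, UDP or UDP-sugars to G proteins. Ectonucleotidases end the signal stepwise: CD39, encoded by Entpd1, converts ATP and ADP to AMP, and CD73, encoded by Nt5e, converts AMP to adenosine, which adenosine receptors then sense. In the brain, P2ry12 and P2ry13 are known as genes of resting microglia.

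The P2Y receptor genes P2ry14, P2ry13 and P2ry12 lie in a cluster on chromosome 3 of GRCm38, at 59113855-59153618, 59207892-59210882 and 59216272-59262871, all on the minus strand and all within the span of Med12l, which runs on the plus strand. P2rx7 (122643911-122691432) and P2rx4 (122707544-122729738) are on the plus strand of chromosome 5, 16.1 kb apart. P2ry6 (100937630-100974649) and P2ry2 (100996568-101012866) are on the minus strand of chromosome 7, 21.9 kb apart. Entpd1 (19, 40612366-40741602), Nt5e (9, 88327197-88372092) and Adora2a (10, 75316877-75334784) are on the plus strand and have no member of the set beside them. All 10 genes are annotated as protein-coding in GENCODE M21. Since the library kit's strand setting was not given in the sources used here, reads of a gene and of an antisense partner cannot be told apart, but of the exons of P2ry12 only 9 of 2546 bases overlap exons of Med12l, and those of P2ry13 and P2ry14 overlap none. Med12l itself was at 5.9 to 15.5 CPM in HFD and 1.45 to 13.7 CPM in chow (CPM, counts scaled to library size with edgeR's TMM factors).

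The stretches upstream of the clustered P2Y genes and of the internal start of Entpd1 are shown for 2 reasons. These genes were detected in all 8 libraries, and each stretch holds 1 of 2 short strings, AGGAAGT in P2ry12 and GAGGAAG in the others. RefSeq's promoter table (GRCm38.p6) held 8 of the 10 genes. P2ry6, which was also detected in all 8 libraries, and Adora2a were absent from it and were not searched. The 250 bases before each start were searched on both strands for GAGGAAG and AGGAAGT, which hold the core bound by PU.1, an ETS-family factor of macrophages; matches of these 2 strings can overlap, and they were chosen after the sequences were seen. Capitals mark the match, and each sequence is written 5′ to 3′ on the gene's strand.
P2ry12, chr3:59262986-59263235, minus strand: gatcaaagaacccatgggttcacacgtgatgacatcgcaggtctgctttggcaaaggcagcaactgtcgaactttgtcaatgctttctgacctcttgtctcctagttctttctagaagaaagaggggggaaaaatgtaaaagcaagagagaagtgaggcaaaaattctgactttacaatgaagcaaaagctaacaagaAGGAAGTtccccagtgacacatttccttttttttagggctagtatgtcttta
P2ry13, chr3:59210883-59211132, minus strand: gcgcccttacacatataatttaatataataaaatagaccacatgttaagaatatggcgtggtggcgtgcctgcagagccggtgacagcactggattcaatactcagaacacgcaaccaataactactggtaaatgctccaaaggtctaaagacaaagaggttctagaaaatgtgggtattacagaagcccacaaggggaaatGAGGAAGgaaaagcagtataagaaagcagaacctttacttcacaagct
P2ry14, chr3:59153493-59153742, minus strand: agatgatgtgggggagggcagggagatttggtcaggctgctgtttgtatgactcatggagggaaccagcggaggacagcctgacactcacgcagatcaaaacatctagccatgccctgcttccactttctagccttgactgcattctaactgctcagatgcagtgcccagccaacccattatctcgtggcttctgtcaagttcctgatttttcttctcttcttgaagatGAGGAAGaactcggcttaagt
Entpd1, second listed start, chr19:40659520-40659769, plus strand: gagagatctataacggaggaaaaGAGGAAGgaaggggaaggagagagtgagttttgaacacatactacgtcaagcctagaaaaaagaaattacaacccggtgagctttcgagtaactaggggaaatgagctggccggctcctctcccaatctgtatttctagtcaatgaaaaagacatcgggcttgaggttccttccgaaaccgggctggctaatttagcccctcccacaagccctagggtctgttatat

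Counted from the start, with -1 as the base before it, the match began at -52 in P2ry12, -48 in P2ry13, -21 at the first listed start of P2ry14 and -227 at the second listed start of Entpd1. Among the starts in the table, those of P2rx4 and P2rx7, which were also detected in every library, held no match of either string. Neither did those of P2ry2 and Nt5e or the other starts of P2ry14 and Entpd1. The letters common to both strings, AGGAAG, were not searched on their own and also occur before the second listed start of P2rx7. Of 32851 promoter stretches of this length, 15.4% held at least 1 of the strings, 10.6% GAGGAAG and 7.69% AGGAAGT. A match is a description of letters, and binding was not measured here.

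The libraries held 4532499 to 5917922 counts in HFD and 4288661 to 6391245 counts in chow. Macrophage markers were abundant in every library, with all 12 listed genes tested and their summed level between 6451 and 7532 CPM in HFD and between 6341 and 8478 CPM in chow. Transcripts of stellate cells and fibroblasts gave a summed level of 458, 301, 241 and 106 CPM in the HFD libraries, in replicate order, against 24 to 133 CPM in chow. Within that list the collagens were high in HFD replicates 5, 6 and 7 and near 0 elsewhere, with Col1a1 at 30.8 to 72.5 CPM there, at 0.201 CPM in HFD replicate 8 and at 0 in all 4 chow libraries, whereas Rgs5 made up 97 CPM of the sum in HFD replicate 8 and 78.8 to 128 CPM of it in chow replicates 2 to 4. Acinar cell transcripts summed to 36.6 to 1588 CPM in HFD and 0.225 to 3325 CPM in chow, and beta cell transcripts to 640 to 995 CPM in HFD and 396 to 1036 CPM in chow.

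A low-count filter (filterByExpr) left 10129 genes, among them 7 of the 10 members, which were tested in a single edgeR quasi-likelihood fit. With Benjamini-Hochberg adjustment over all genes tested, 0 of the 7 members passed the threshold of 0.05, against 0% of the 10129 genes. At an unadjusted p under 0.05 there were 2 of 7 members, Entpd1 higher and P2ry13 lower in HFD, where 5.35% of all genes tested lay under it (2.61% higher and 2.74% lower). DESeq2 called 28 of all genes and 0 of the members. Across the 7 members 2 had higher and 5 had lower fitted levels in HFD, with a median log2 fold change of -0.26 beside -0.02 over all genes tested. In bulk RNA, fewer cells of a type and less RNA per cell cannot be told apart.

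The enzyme CD39, encoded by Entpd1, had higher transcript levels in every HFD library than in any chow library. Entpd1 (ENSMUSG00000048120) was at 272, 295, 336 and 254 CPM in HFD replicates 5 to 8, against 202, 197, 187 and 183 CPM in chow replicates 1 to 4. The groups did not overlap, and the chow libraries lay close together, within 1.1-fold of each other, while the HFD libraries spanned 1.33-fold. It was the only 1 of the 7 tested members without overlap; of all genes tested, 3.39% had no overlap and 1.68% had every HFD library above every chow library. The mean was 289 ± 35.6 CPM in HFD and 192 ± 8.92 CPM in chow (SD, n = 4 each), a fold change of 1.5 with a 95% interval of 1.12 to 2.03 (log2 0.59, SE 0.21). The unadjusted p was 0.00972, the 123rd smallest of the 10129 genes, and the edgeR adjusted p was 0.75, so Entpd1 did not pass. The log2 fold change stayed between 0.51 and 0.65 when each library was left out in turn.

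**Figure D1:**
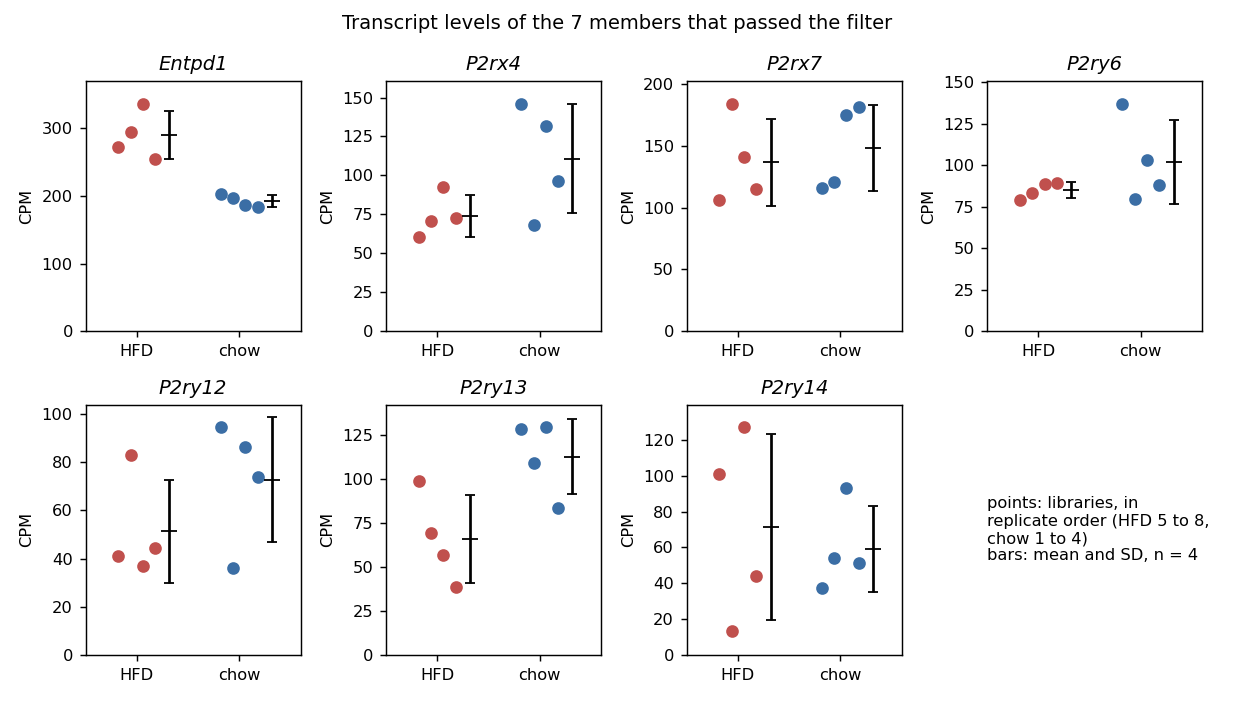
Level of each tested member in CPM (vertical axes from 0) in the 4 HFD and the 4 chow libraries; points are libraries in replicate order and bars are the mean with SD. Entpd1 is the panel whose diets do not overlap, with HFD at 254 to 336 CPM and chow at 183 to 202 CPM, and P2ry14 has the widest spread, 13.5 to 127 CPM within HFD.

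Entpd1 is also known in endothelial cells, B cells and regulatory T cells, so markers of these cells were read beside it. Other sources are possible. Dendritic cell markers, for example, summed to 154 to 290 CPM in HFD and 273 to 327 CPM in chow. Endothelial markers summed to 1 to 13.7 CPM in HFD and 0 to 7.65 CPM in chow, with 0 of 8 genes tested and Flt1 and Esam at 0 in all libraries. The sum was highest in HFD replicate 7, which was also highest in Entpd1. Pecam1 was at 1.79, 1.56, 11.2 and 0 CPM in the HFD libraries, in replicate order, against 3.82, 2.5, 0 and 0.236 CPM in chow. Kdr was at 6.55, 0, 2.53 and 0 CPM in HFD, against 0.225, 5.15, 0 and 0.236 CPM in chow. The B cell markers Cd79a and Pax5 and the T cell markers Cd3e and Cd3g were at 0 in every library, and Foxp3 was at 0 to 1.21 CPM in HFD and 0.156 to 1.66 CPM in chow. Other markers of these lists were not at 0: Cd79b was at 1.39, 5.38, 20.4 and 9.24 CPM in the HFD libraries, in replicate order, against 6.51, 0.937, 0 and 0 CPM in chow, and was highest in HFD replicate 7, which was also highest in Entpd1. Cd4, which macrophages can also express, was at 9.84 to 42.9 CPM in HFD and 10.8 to 48.3 CPM in chow. The part of such cells in the Entpd1 levels was not tested. The B cell sum was 208 to 300 CPM in HFD and 250 to 446 CPM in chow. It came mostly from Ighm, at 187 to 295 CPM in HFD and 250 to 439 CPM in chow. In HFD replicate 7 Ighm and the B cell sum were the lowest of all libraries, at 187 and 208 CPM. Ms4a1, also of the B cell list, was at 0 to 1.81 CPM in HFD and 0 to 6.71 CPM in chow. Its highest library was chow replicate 2.

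Stromal transcripts other than Rgs5 were high in HFD replicates 5, 6 and 7 but not in HFD replicate 8, and their part in the Entpd1 difference was not tested. The 11 markers other than Rgs5 summed to 427, 250, 216 and 8.64 CPM in the HFD libraries, in replicate order, against 24, 1.87, 4.56 and 3.3 CPM in chow. Rgs5, a pericyte gene, was at 31.2, 50.5, 25.1 and 97 CPM in the HFD libraries, in replicate order, against 0, 78.8, 128 and 85.4 CPM in chow. Its groups overlapped, and chow replicate 1 was the lowest library. HFD replicates 5, 6 and 7, which were above the chow range for the 11 markers, had 272 to 336 CPM of Entpd1, and HFD replicate 8, within that range, had 254 CPM, the lowest of the HFD libraries and above all 4 chow libraries.

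In the main fit the log2 fold change of Entpd1 was 0.59 (SE 0.21), and covariates built from these sums gave wider errors. With the log2 sum of the 11 markers in the edgeR fit, an alternative added after seeing the data, the log2 fold change of Entpd1 was 0.43 (SE 0.32, unadjusted p = 0.202, adjusted p = 1). With the sum of all 12 markers, Rgs5 included, it was 0.60 (SE 0.31, unadjusted p = 0.0679, adjusted p = 0.984). Over all 21 alternatives the adjusted p was between 0.215 and 1. Per 1000 CPM of macrophage markers, Entpd1 was at 40.3, 39.2, 50.4 and 39.3 in HFD replicates 5 to 8. In chow replicates 1 to 4 it was at 23.8, 29.6, 24 and 28.8, without overlap. The CPM of Entpd1 alone already separated the diets, so this ratio adds no independent result. Scaling by the macrophage markers was chosen after the data were seen, and the ratio itself was not tested. Lyz2 alone made up 2086 to 3060 CPM of the marker sum in HFD and 2052 to 3219 CPM in chow.

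**Figure D2:**
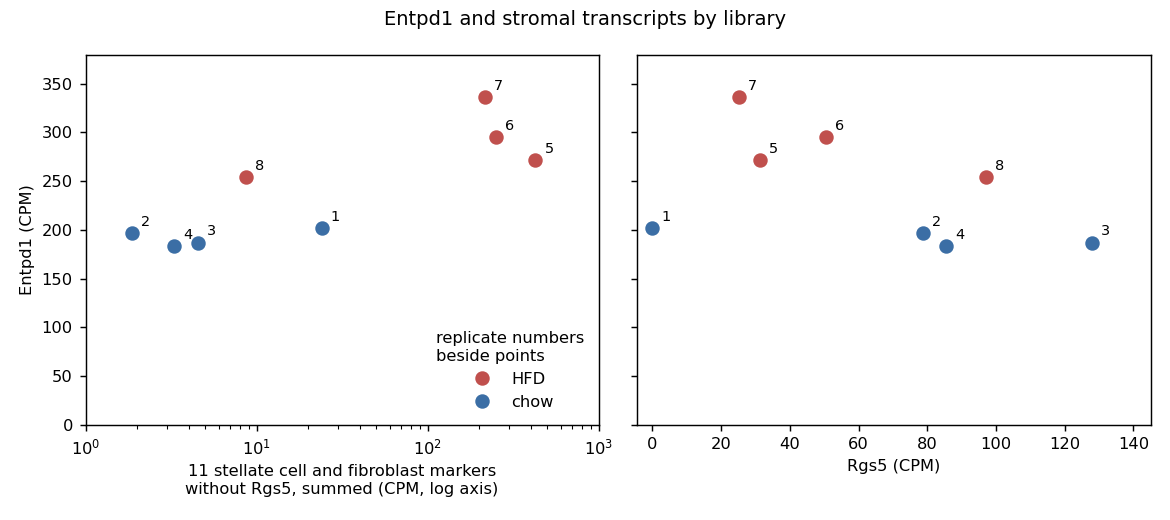
Entpd1 in CPM (vertical axes from 0) in each library against the summed CPM of 11 stellate cell and fibroblast markers without Rgs5 (left, log axis) and against Rgs5 (right), with replicate numbers beside the points. HFD replicate 8 lies within the chow range of the 11 markers, at 8.64 CPM, and has 254 CPM of Entpd1; the other HFD libraries lie above that range, at 216 to 427 CPM.

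Transcripts of CD73 and of the adenosine receptor Adora2a were near or at 0. Nt5e (ENSMUSG00000032420) had 1 count in HFD replicate 5 and 0 counts in the other 7 libraries. Adora2a (ENSMUSG00000020178) had 0 counts in all 8 libraries, which allows up to 0.521 to 0.632 CPM in single HFD libraries and 0.468 to 0.708 CPM in single chow libraries, taken as 3 counts and covering counting error only. The transcript for the first step of ATP breakdown was among the more abundant ones, with 94.3% of tested genes lower per kb of exons, while transcripts for the AMP-hydrolysing enzyme and for the Adora2a receptor were not detectable at this depth apart from that single count. A difference between the diets in these 2 genes could not be seen at this depth.

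The ATP-gated channels were both well detected. P2rx7 (ENSMUSG00000029468), the channel known for opening a large pore and triggering interleukin-1 beta release in macrophages, was at 106, 184, 141 and 115 CPM in HFD replicates 5 to 8, against 116, 121, 175 and 181 CPM in chow replicates 1 to 4. Low and high libraries occurred in both diets, and the groups overlapped almost fully. Its fold change was 0.923 with a 95% interval of 0.612 to 1.39 (log2 -0.11, SE 0.28, unadjusted p = 0.689, edgeR adjusted p = 0.99), an interval that holds differences in either direction.

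P2rx4 (ENSMUSG00000029470), a channel with higher ATP sensitivity that also resides in lysosomes, was at 60.6, 70.5, 92.3 and 72.5 CPM in HFD replicates 5 to 8, against 146, 68.4, 132 and 96.3 CPM in chow replicates 1 to 4. All 4 HFD libraries lay below the chow median of 114 CPM, but chow replicate 2 was as low as the HFD libraries, so the groups overlapped. The means were 74 ± 13.3 CPM in HFD and 111 ± 35.2 CPM in chow (SD, n = 4 each), with a log2 fold change of -0.58 (SE 0.34, unadjusted p = 0.102, edgeR adjusted p = 0.99). Its 95% interval in folds ran from 0.409 to 1.09. Without chow replicate 2 the log2 fold change was -0.75 (unadjusted p = 0.0399, edgeR adjusted p = 0.783, against 0.566 to 1 over the 21 alternatives), and without chow replicate 1 it was -0.42.

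The ratio of Entpd1 to the summed P2rx4 and P2rx7 CPM set the enzyme beside the channels within each library, where scaling between libraries cancels. It was 1.63, 1.16, 1.44 and 1.35 in HFD replicates 5 to 8, against 0.77, 1.05, 0.61 and 0.66 in chow replicates 1 to 4. Every HFD library was above every chow library, the nearest being HFD replicate 6 and chow replicate 2. Entpd1 alone already did not overlap, so the ratio adds no independent result. The ratio of P2rx4 to P2rx7 overlapped, at 0.384 to 0.654 in HFD and 0.532 to 1.27 in chow. These ratios were formed after the values were seen and were not tested.

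P2ry13 (ENSMUSG00000036362), a Gi-coupled receptor for ADP, had the lowest fitted fold change among the members. It was at 98.5, 69.3, 56.7 and 38.8 CPM in HFD replicates 5 to 8, against 128, 109, 129 and 83.5 CPM in chow replicates 1 to 4. HFD replicate 5 reached into the chow range, and the other HFD libraries were below all chow libraries. The means were 65.8 ± 25.1 CPM in HFD and 112 ± 21.3 CPM in chow (SD, n = 4 each), a fold change of 0.586 with a 95% interval of 0.35 to 0.98 (log2 -0.77, SE 0.35, unadjusted p = 0.0423, edgeR adjusted p = 0.90). It did not pass, and the unadjusted p was under 0.05 in 12 of 21 alternative analyses and up to 0.117, without HFD replicate 8. The edgeR log2 fold change was -1.62 (SE 0.56, unadjusted p = 0.0106) with the 11 stromal markers without Rgs5 as covariate. That covariate was added after seeing the data. With all 12 stromal markers the log2 fold change was -1.18 (SE 0.55, unadjusted p = 0.0445, adjusted p = 0.976). Within HFD, P2ry13 and the sum of the 11 markers both fell from replicate 5 to replicate 8. The part of stromal transcripts in the P2ry13 levels was not tested.

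P2ry12 (ENSMUSG00000036353), the Gi-coupled ADP receptor targeted by antiplatelet drugs, was at 40.9, 83, 37.1 and 44.4 CPM in HFD replicates 5 to 8, against 94.4, 35.9, 86.5 and 73.9 CPM in chow replicates 1 to 4. Each diet had 1 library that went with the other diet, HFD replicate 6 being high and chow replicate 2 low. The means were 51.4 ± 21.3 CPM in HFD and 72.6 ± 25.9 CPM in chow (SD, n = 4 each), and the log2 fold change was -0.50 (SE 0.43, unadjusted p = 0.262, edgeR adjusted p = 0.99). Its 95% interval in folds was 0.378 to 1.32.

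P2ry14 (ENSMUSG00000036381), a receptor for UDP-glucose, differed more between libraries of 1 diet than between the diets. It was at 101, 13.5, 127 and 44.2 CPM in HFD replicates 5 to 8, against 37.3, 54.2, 93.1 and 51.2 CPM in chow replicates 1 to 4. HFD replicates 5 and 7 were the highest of all libraries and HFD replicate 6 the lowest, on 601 counts in replicate 7 and 78 counts in replicate 6. The HFD libraries thus spanned 9.35-fold and the chow libraries 2.5-fold. The SD of log2(CPM + 1) was 1.42 within HFD, against a median of 0.52 over the 1622 tested genes with a mean CPM within 1.5-fold of it. With a log2 fold change of 0.28 (SE 0.53, unadjusted p = 0.611, edgeR adjusted p = 0.99) and a 95% interval of 0.558 to 2.63 in folds, no direction was resolved, and the sign turned without HFD replicate 7 (-0.16).

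Within the chromosome 3 cluster the libraries did not line up. HFD replicate 6 had the highest P2ry12, the second highest P2ry13 and the lowest P2ry14 of the HFD libraries. The ratio of P2ry14 to P2ry13 CPM was 1.03, 0.195, 2.23 and 1.14 in HFD replicates 5 to 8, against 0.292, 0.496, 0.722 and 0.613 in chow replicates 1 to 4.

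P2ry6 (ENSMUSG00000048779), the Gq-coupled receptor for UDP that is known to drive uptake by phagocytes, was the most even of the members within HFD. It was at 79.3, 83.2, 88.5 and 89.4 CPM in HFD replicates 5 to 8, against 137, 79.6, 103 and 87.8 CPM in chow replicates 1 to 4. The HFD range lay almost wholly inside the chow range, and chow replicate 1 stood highest. Its coefficient of variation was 5.59% in HFD and 24.8% in chow. The log2 fold change was -0.26 (SE 0.32, unadjusted p = 0.425, edgeR adjusted p = 0.99), with a 95% interval of 0.529 to 1.32 in folds, and it was 0.07 (SE 0.46) with the sum of all 12 stromal markers as a covariate.

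P2ry2 (ENSMUSG00000032860), the Gq-coupled receptor for ATP and UTP, was barely detected. It had 3, 11, 1 and 0 counts in HFD replicates 5 to 8, against 0 counts in all 4 chow libraries, and did not pass the filter. The highest library, HFD replicate 6, was at 1.91 CPM. HFD replicate 8 was at 0 like the chow libraries.

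**Figure D3:**
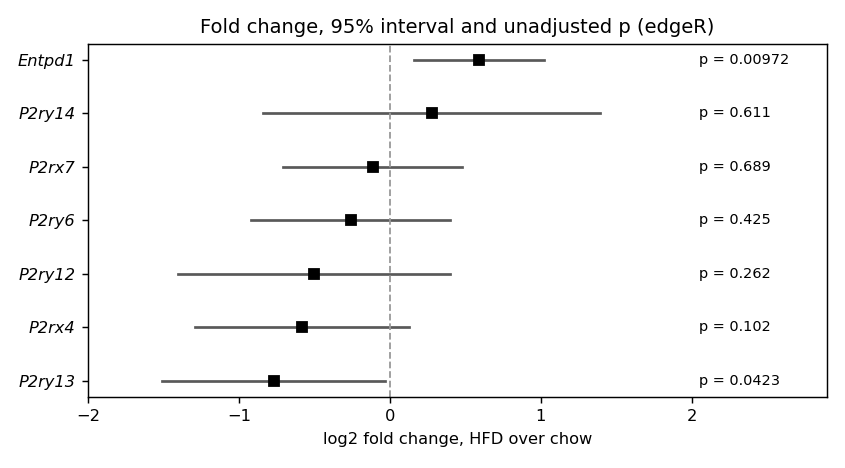
Log2 fold change of HFD over chow (horizontal axis) for the 7 tested members, with 95% intervals as lines and the unadjusted edgeR p beside each. The intervals of Entpd1 (0.16 to 1.02) and P2ry13 (-1.51 to -0.03) do not cross 0; no member passed after adjustment over 10129 genes.

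Set per kb of exons, which allows genes to be compared, the mean level over all 8 libraries was highest for Entpd1 at 43.2 CPM per kb. P2ry13 followed at 35.2, P2ry6 at 32.4, P2ry12 at 24.4, P2rx7 at 23.8, P2rx4 at 13.1 and P2ry14 at 5.89 CPM per kb. The ranges over the libraries overlapped between every pair of neighbours in this order, so no neighbours were set apart. P2ry6 was above P2ry12, P2rx7 above P2rx4, and P2rx4 above P2ry14 in 7 of 8 libraries each, while Entpd1 was above P2ry13 in 4 of 8, all of them HFD libraries. Among genes tested, 94.3% had a lower level per kb than Entpd1, 92.6% than P2ry13 and 53.3% than P2ry14. Exon length was taken over all annotated isoforms, so P2ry14, with 11059 bases, would be placed higher if a shorter isoform were used.

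**Figure D4:**
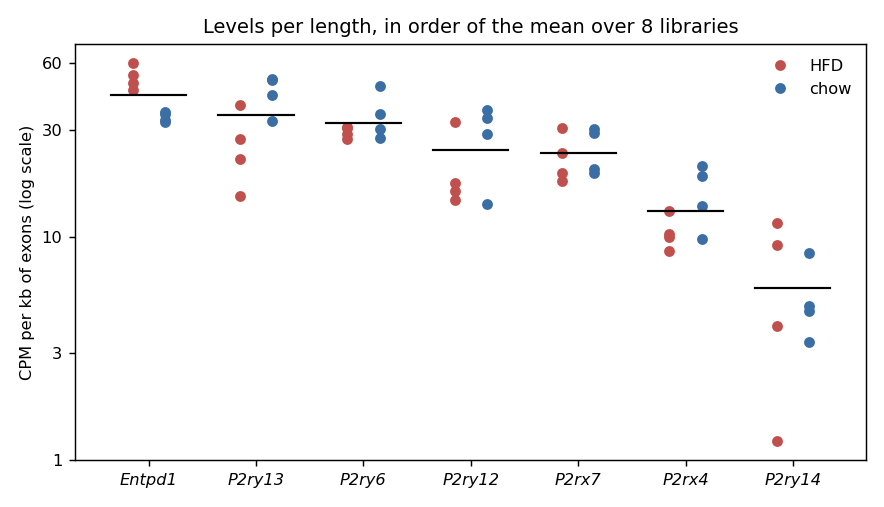
CPM per kb of exons on a log axis for the 7 tested members, ordered by the mean over 8 libraries (black line), with HFD and chow libraries as points. Entpd1 is at 32.8 to 60.2 and P2ry14 at 1.22 to 11.5 CPM per kb, and neighbours in the order overlap.

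By profile over the 8 libraries, the tested genes most like the 3 members with the highest levels per kb were Zdhhc13 and Rcc1l for Entpd1, Rmdn3 and Stk4 for P2ry13, and Pced1a and Epn1 for P2ry6. Likeness was the root-mean-square distance between log2(CPM + 1) profiles centred and scaled to unit SD, which was 0.14 to 0.29 for these 6 genes, against a median of 1.32 to 1.34 over all 10128 others. Zdhhc13, a palmitoyltransferase gene, was at 47.7, 51.6, 72.9 and 44 CPM in HFD replicates 5 to 8, against 22.7, 27.5, 22.2 and 20.3 CPM in chow replicates 1 to 4. Stk4, a kinase gene of the Hippo pathway, was at 200, 124, 125 and 67.7 CPM in HFD replicates 5 to 8, against 191, 186, 213 and 170 CPM in chow replicates 1 to 4. With 10128 candidates and 8 libraries, close profiles are found by picking.

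Other genes of the pathway were read from lists, and 0 genes of any list passed the threshold. Of the 5 other P2X channel genes 0 were tested: P2rx1, P2rx3 and P2rx5 had 0 counts in every library, and P2rx2 and P2rx6 had 2 counts each in HFD and 0 and 7 counts in chow. P2rx4 and P2rx7 were thus the 2 P2X genes detected in all libraries. Of 8 other P2Y and related receptor genes 2 were tested, both with lower fitted levels in HFD. P2ry10b was at 26.7 ± 18.5 CPM in HFD and 45.9 ± 16.3 CPM in chow, and Gpr34, a lysophosphatidylserine receptor, at 120 ± 37.1 CPM in HFD and 126 ± 27 CPM in chow (SD, n = 4 each).

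Among the other adenosine receptors, Adora2b had 0 counts in every library. Adora1, which couples to Gi, was at 5.96, 45.8, 31.4 and 36.6 CPM in HFD replicates 5 to 8, against 3.37, 8.27, 18 and 2.6 CPM in chow replicates 1 to 4. Of the HFD libraries 3 were above all chow libraries and HFD replicate 5 was within the chow range. The log2 fold change was 1.89 (SE 0.85, unadjusted p = 0.038, edgeR adjusted p = 0.89). Adora3 was at 5.51 ± 5.04 CPM in HFD and 9.75 ± 4.33 CPM in chow (SD, n = 4 each); its locus overlaps Tmigd3, to which the deposited table gives the same symbol, and reads may be split between them, since both have counts that are not whole.

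Of 13 other ectonucleotidase and NAD glycohydrolase genes 5 were tested, 3 higher and 2 lower in HFD, with 0 at an unadjusted p under 0.05. Enpp4, which cleaves diadenosine polyphosphates in humans, was the most abundant of them at 216 ± 53.1 CPM in HFD and 178 ± 46.6 CPM in chow. Enpp1, which hydrolyses ATP to AMP and pyrophosphate, was at 31.4 ± 17.3 CPM in HFD and 13.6 ± 14.9 CPM in chow, and Entpd7, an intracellular member of the Entpd family, at 18.9 ± 13.1 CPM in HFD and 31.1 ± 5.07 CPM in chow (SD, n = 4 each). Alpl, another enzyme that can form adenosine from AMP, had 0 counts in all libraries; it was named after its values were seen.

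In the list of adenosine uptake and removal 6 of 9 genes were tested, 4 higher and 2 lower in HFD. Slc29a3, a nucleoside transporter of lysosomes, was at 819, 1036, 844 and 1155 CPM in HFD replicates 5 to 8, against 1184, 1368, 1549 and 1269 CPM in chow replicates 1 to 4. Every HFD library was below every chow library, as was the case for 1.71% of all genes tested, with a log2 fold change of -0.48 (SE 0.15, unadjusted p = 0.0049, edgeR adjusted p = 0.75). Xdh, which oxidises purines to uric acid, was at 34, 11.1, 39.6 and 2.41 CPM in HFD replicates 5 to 8, against 2.02, 9.52, 0 and 4.01 CPM in chow replicates 1 to 4, and Slc29a1, a nucleoside transporter of the plasma membrane, at 23.8 ± 9.41 CPM in HFD and 17.3 ± 7.74 CPM in chow (SD, n = 4 each). The groups overlapped for both (unadjusted p = 0.0491 for Xdh and 0.509 for Slc29a1).

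Of 10 ATP release genes 6 were tested, 5 higher and 1 lower in HFD, with a median log2 fold change of 0.51. The unadjusted p was under 0.05 for 0 of them. Vdac1, a mitochondrial anion channel, was at 60.2 ± 27.5 CPM in HFD and 31.4 ± 11.9 CPM in chow, Lrrc8a, a volume-regulated anion channel subunit, at 35.9 ± 23.1 CPM in HFD and 22.7 ± 11.2 CPM in chow, and Panx1, the pannexin channel, at 6.95 ± 4.97 CPM in HFD and 1.65 ± 1.43 CPM in chow (SD, n = 4 each).

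Downstream of P2RX7, all 7 inflammasome genes were tested, 3 higher and 4 lower in HFD, with a median log2 fold change of -0.07. Il1b, the cytokine whose release follows P2RX7 opening, was at 54.6, 84.9, 31.2 and 121 CPM in HFD replicates 5 to 8, against 249, 170, 216 and 193 CPM in chow replicates 1 to 4 (log2 fold change -1.51, SE 0.35, unadjusted p = 0.000381, edgeR adjusted p = 0.58). Every HFD library was below every chow library for Il1b, as for 1.71% of all genes tested, whereas the groups of P2rx7 overlapped. Nlrp3, the sensor of the inflammasome, was at 21.1 ± 14.8 CPM in HFD and 15.6 ± 9.45 CPM in chow, and the pore-forming effector gene Gsdmd at 25.6 ± 9.33 CPM in HFD and 38.3 ± 24.8 CPM in chow (SD, n = 4 each).

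The G proteins and calcium-release genes that P2Y receptors use were mostly well detected, 17 of 20 being tested, 8 higher and 9 lower in HFD, with a median log2 fold change of -0.01. Plcb3, a phospholipase C isoform, was at 13.1, 15.5, 16.4 and 11.8 CPM in HFD replicates 5 to 8, against 36.2, 36.4, 23.2 and 29 CPM in chow replicates 1 to 4 (log2 fold change -1.13, SE 0.63, unadjusted p = 0.0859, edgeR adjusted p = 0.97). Every HFD library was below every chow library, as for 1.71% of all genes tested, yet the fitted error was wide at these counts. Plcb2, another isoform, was at 122 ± 20.7 CPM in HFD and 168 ± 61.8 CPM in chow, and Gnaq, the Gq alpha subunit, at 310 ± 69.8 CPM in HFD and 373 ± 53.7 CPM in chow (SD, n = 4 each).

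P2ry12 and P2ry13 also belong to a list of 11 genes that mark microglia and other resident macrophages, of which 9 were tested, 2 higher and 7 lower in HFD, with a median log2 fold change of -0.19. Fcrls was at 245, 97.9, 98.4 and 28.9 CPM in HFD replicates 5 to 8, against 32.1, 26.5, 48.7 and 35.9 CPM in chow replicates 1 to 4, a log2 fold change of 1.72 (SE 0.50, unadjusted p = 0.00257, edgeR adjusted p = 0.71). It was high in the 3 HFD libraries with stromal transcripts above the chow range and within the chow range in HFD replicate 8; the part of those transcripts in this difference was not tested. Cx3cr1, the fractalkine receptor gene, was at 634 ± 133 CPM in HFD and 782 ± 218 CPM in chow (SD, n = 4 each). Sall1, a transcription factor of microglia, had 9 counts in HFD, all in replicate 5, and 0 counts in chow; it was named after its values were seen.

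**Figure D5:**
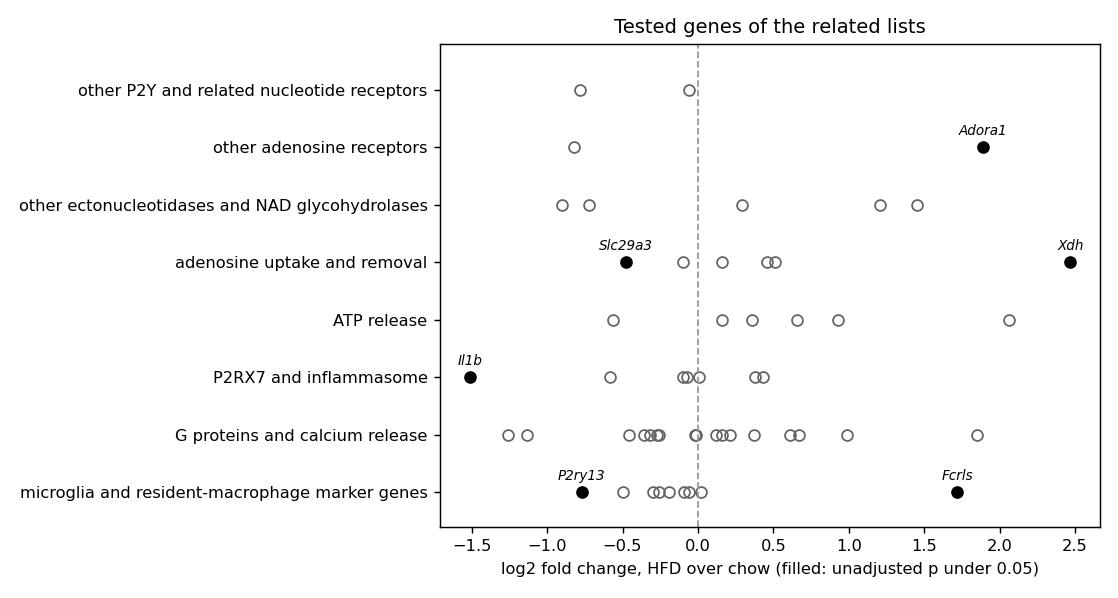
Log2 fold change of HFD over chow (horizontal axis) for every tested gene of the related lists, 1 row per list; filled and named points have an unadjusted edgeR p under 0.05. Il1b, Slc29a3 and P2ry13 lie below 0, and Adora1, Xdh and Fcrls above it, and none of these passed after adjustment over all genes.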

How the data were processed

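The authors deposited expected counts per Ensembl gene, not scaled between libraries; 7.66% to 8.32% of the values above 0 were not whole, but none of the members' were. Reads were processed with FastQC, Trim Galore and STAR on GRCm38, per the submitters' processing notes; versions, the counting program and its annotation were not given in the sources used here. Values were rounded and tested in edgeR (version 4.0.16, R 4.3.3) with TMM scaling, filterByExpr, a robust quasi-likelihood fit with diet as the only term, two-sided tests and Benjamini-Hochberg adjustment over 10129 genes. Fold changes are HFD over chow. Symbols, coordinates and exon lengths came from GENCODE M21, which held 48058 of the 48440 identifiers. Alternatives used DESeq2 (version 1.42.0), limma (version 3.58.1), other scalings and filters, covariates and left-out libraries. The edgeR step was tested on simulated counts with set fold changes, drawn separately for each gene. Differences in cell content between libraries were not simulated. The members and lists were chosen with earlier results of these data known. Named genes were all members and, per list, up to 3 tested genes with the smallest p; others are said to be named after their values were seen, as are the marker genes given beside Entpd1. Each library pooled 2 mice, and p-values measure the spread between these libraries. Counts come from amplified cDNA and are not independent molecules.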

Additional observations from a re-analysis of the deposited data

Results flagged for a closer look

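P2ry12 in HFD replicate 6 stood far from the other HFD libraries, at 83 CPM against 37.1 to 44.4 CPM in HFD replicates 5, 7 and 8. The gap to the nearest library was 0.841 of the range of the group, above Dixon's 95% critical value for 4 samples. Of the 14 groups of members and diets checked this was the only one flagged, and chance flags about 1 in 20 groups. Without HFD replicate 6 the log2 fold change of P2ry12 was -0.84 (unadjusted p = 0.095, edgeR adjusted p = 0.995, against 0.684 to 1 over the 21 alternatives), against -0.50 with it.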

How the results depend on the processing

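No alternative called any of the 7 tested members after adjustment, and the directions of Entpd1, P2rx4, P2rx7, P2ry12 and P2ry13 were kept in all 21 alternatives. Their log2 fold changes ranged from 0.43 to 0.67, -0.82 to -0.32, -0.42 to -0.01, -0.91 to -0.35 and -1.62 to -0.59 in that order. The unadjusted p of Entpd1 was under 0.05 in 19 of the 21, the exceptions being the covariates of all 12 stromal markers (0.0679) and of the 11 without Rgs5 (0.202). P2ry6 was at -0.41 with the 11 stromal markers without Rgs5 and turned to 0.07 with all 12 as covariate. P2ry14 turned to -0.48 with that covariate, -0.20 with the 11 markers without Rgs5 (added after seeing the data), -0.21 with limma-voom and -0.16 without HFD replicate 7, with -0.16 to 0.61 over the fits that left out a library; the cause was not tested. Over all genes edgeR called 0, against 28 with DESeq2, 1 with limma-voom, 45 with no filter on low counts, 1 with libraries scaled by macrophage markers (added after seeing the data) and 0 to 11 with a library left out, the 11 without HFD replicate 8. On CPM from library totals without TMM, the means of all 10 members in both diets moved by less than 1 SD. No paired analysis was possible because the diets share no replicate number. With 4 libraries a diet, fold changes inside a member's stated interval could not be told apart, and no member passed after adjustment.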

Other observations

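Gpr171, P2ry1 and Adk are named here after their values were seen, and were not tested because they did not pass the filter. Gpr171, a receptor gene of the Med12l span on chromosome 3 (59096448-59101821, minus strand), was at 20.7, 7.47, 0.211 and 8.44 CPM in HFD replicates 5 to 8, against 0, 0.156, 0 and 0 CPM in chow replicates 1 to 4, with 190 counts over the HFD libraries and 1 over the chow libraries. HFD replicate 7 was at the level of a single count. P2ry1, a Gq-coupled receptor for ADP, was at 0.199, 11.6, 12 and 2.01 CPM in HFD replicates 5 to 8, against 0, 2.19, 0.415 and 0.944 CPM in chow replicates 1 to 4. Adk, which phosphorylates adenosine to AMP, was at 39.4 CPM in HFD replicate 8 and at 0.596 to 10.3 CPM in the other HFD libraries, against 0 to 2.83 CPM in chow.

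The libraries highest in P2ry14 were also the highest in Cd4, which was at 42.9, 18.2, 42.6 and 9.84 CPM in HFD replicates 5 to 8, against 10.8, 25.3, 48.3 and 16.3 CPM in chow replicates 1 to 4. Cd3e and Cd3g were at 0 in all 8 libraries. This was seen in the values and was not tested.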
